A study of Mus musculus with 22 samples.

Results

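The thymus and the cerebrum of wild-type (WT) mice were compared gene by gene. The comparison held 8 of the 22 libraries of the series, 4 WT thymi and 4 WT cerebra, joined by Ensembl gene identifier, and every listed gene entered: 34584 genes, of which 34530 had a symbol in the GRCm38 annotation and 54 did not. RNA was taken from frozen whole organs of C57BL/6 mice of WT genotype, which are littermates of Tol mice and carry no transgene. Tol mice, heterozygous for a scrambled reporter sequence driven by the CAG promoter near Col1a1, gave 4 further thymi and 4 cerebra that serve as a repeat at the end. The study's methods give the animals' age only as a single range of weeks, of young adults, for all of its mice. Whether the same replicate number in both organs marks the same mouse was not given in the sources used here.

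The thymus is the organ in which T cells develop. Its thymocytes divide, cut and rejoin the gene segments of the T cell receptor with the RAG recombinase, and are selected on thymic epithelial cells that present self antigens. The cerebrum is built of neurons that have left the cell cycle and signal through synapses, of astrocytes that take up glutamate, of oligodendrocytes that make myelin, and of microglia, the resident macrophages of the brain. The question put to the data was how far the lymphoid and dividing programs of the first organ and the neural program of the other stand apart, and which genes are held at the same level in both. Because RNA came from whole organs, fewer cells of a type and less RNA per cell cannot be told apart in any value given here.

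Total counts ranged from 16319117 to 29145284 per thymus library and from 18049095 to 21007904 per cerebrum library. Levels are given as CPM, counts per 1000000 counts of the library, after scaling by edgeR's TMM factors, always in the order WT 1, WT 2, WT 3 and WT 4. A level under 3 counts, 0.0917 to 0.196 CPM depending on the library, was treated as not detectable, a limit that covers counting error only. Differences are log2 fold changes of thymus over cerebrum, ± the standard error, from edgeR's quasi-likelihood test with Benjamini-Hochberg adjustment over the 16851 genes that passed its expression filter, and a gene is called where the adjusted p is under 0.05. A gene with next to no counts in 1 organ could pass this filter only through the other, so its direction was set by the filter.

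Most genes differed between the organs. Of the 16851 genes tested, 7596 were called higher in thymus (45.1%) and 6982 higher in cerebrum (41.4%), with over 2-fold higher levels of 5117 genes in thymus (30.4%) and of 5055 in cerebrum (30.0%). Differences over 16-fold were called for 1488 genes in thymus and 1947 in cerebrum. The median log2 fold change over all tested genes was 0.08, and the middle 90% of genes lay between -6.69 and 5.86. A gene was counted as being at equal level where the 95% interval of its log2 fold change lay within -0.5 and 0.5, which held for 1843 genes (10.9%), 721 of which were also called. Every count of list members below stands against these shares of all tested genes. The balance of the over 2-fold calls depended on the scaling: 50.3% were higher in thymus with TMM factors and 60.4% when total counts alone were used, since that moved the median log2 fold change up by 0.41, while upper quartile factors moved it up by 0.19.

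**Figure D1:**
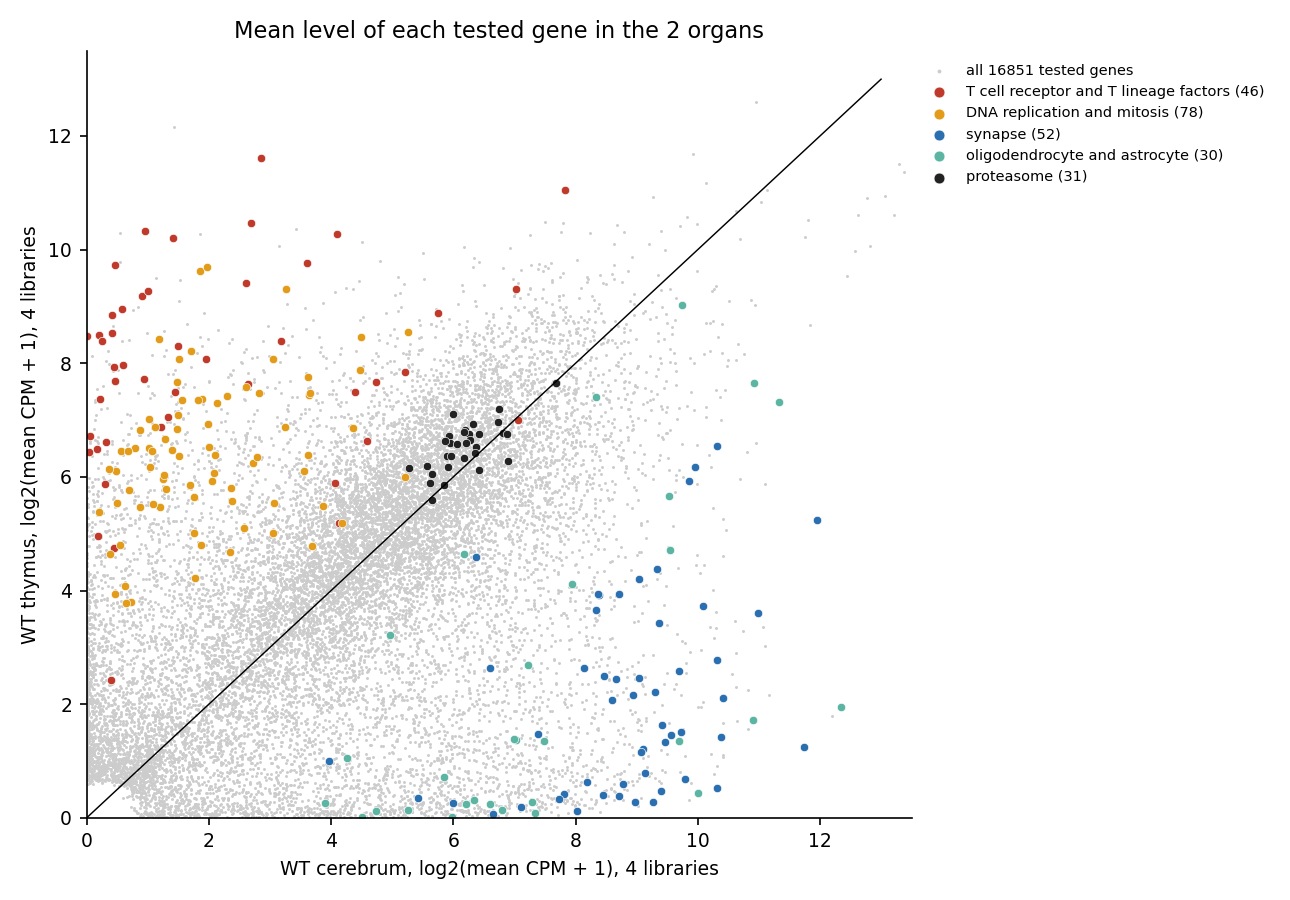
Mean level of each of the 16851 tested genes in WT cerebrum (horizontal axis) and WT thymus (vertical axis), both as log2(mean CPM + 1) over 4 libraries, with the line of equal level. Members of the T cell, DNA replication and mitosis lists lie mostly to the upper left, synaptic and glial genes mostly to the lower right, and the 31 proteasome genes near the line.

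Among genes over 16-fold higher in an organ, those with the highest mean level there are named here. In thymus these were Rag1, Tcf7, Ptprc, Trbc2, Cd8a, Dntt, Cd74, Ets1, Lck, Trp53inp1, Arhgap45 and Laptm5. Trbc2, a constant segment of the T cell receptor, was at 1285, 1266, 1331 and 1383 CPM against 4.57, 16.2, 9.37 and 8.79 CPM in cerebrum, and Laptm5, a lysosomal membrane protein of blood cells, at 996, 1028, 869 and 1028 CPM against 38.9, 49.3, 44.2 and 44.6 CPM. In cerebrum they included Slc1a2, Kif5a, Camk2a, Snap25, Mbp, Camk2n1, Sparcl1, Cpe, Syt1 and App. Camk2n1, an inhibitor of the kinase Camk2, was at 1369, 3097, 2749 and 1930 CPM in cerebrum and 2.89, 5.6, 2.65 and 2.75 CPM in thymus. App, the amyloid precursor, was at 1994, 2054, 2135 and 1772 CPM in cerebrum and kept 99.3, 112, 83.4 and 90.3 CPM in thymus.

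Both organs carried the defining genes of their labels. All 8 defining thymocyte genes and all 4 of thymic epithelium were called higher in thymus, and all 6 of neurons, 4 of the forebrain, 3 of astrocytes and 3 of oligodendrocytes were called higher in cerebrum. The co-receptor Cd4 was high in 1 cerebrum, WT 3, and was at 1.25, 0.651, 41.4 and 1.38 CPM in the cerebra and 884, 881, 799.5 and 915 CPM in the thymi.

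Genes of the T cell receptor complex and its signalling gave the widest separation of any list. Of 25 members, 24 were called higher in thymus, all over 2-fold, against 30.4% of all tested genes, and their median log2 fold change was 9.38 against 0.08 for all genes. In cerebrum 17 of the 25 had a mean under 1 CPM, and for those near 0 the expression filter set the direction. Cd3e, a chain of the CD3 complex that carries the receptor's signal into the cell, stood at 456, 464, 464 and 459.9 CPM in the thymi and at 0.652, 0.261, 0.242 and 0.181 CPM in the cerebra. The thymus values lay within a few CPM of each other and far above every cerebrum value (log2 fold change 10.37 ± 0.19, edgeR adjusted p = 2.31e-11). Without the cerebrum of WT 1, which was the highest, the value was 10.96. Cd3d, another CD3 chain and the member with the lowest p, was at 243, 245, 238 and 274 CPM against 0.652, 0.456, 0.484 and 0.481 CPM.

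The co-receptor gene Cd8a, which marks thymocytes that recognise class I antigens, was at 1240, 1215, 1257 and 1417 CPM in thymus and 1.36, 1.11, 0.726 and 0.602 CPM in cerebrum, a log2 fold change of 10.38 ± 0.19. Lck, the kinase bound to both co-receptors, was at 1156, 1117, 1188 and 1250 CPM against 2.23, 1.04, 1.21 and 2.17 CPM. Cd4 differed by 6.29 ± 1.11 on the log2 scale (edgeR adjusted p = 0.000355), and without the cerebrum of WT 3 it was 9.62 (edgeR adjusted p = 4.87e-11). Ptcra, the invariant chain that pairs with the first rearranged receptor chain of immature thymocytes, was at 30, 22.5, 24 and 27.1 CPM against 0.543, 0.261, 0.423 and 0.241 CPM.

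No count of the costimulatory receptor Cd28 was found in any cerebrum. Its level was 328, 364, 356 and 380.1 CPM in the thymi, at least 1826-fold higher than the limit of 3 counts in a cerebrum library. It led the 308 tested genes with 0 counts in all 4 cerebra, which could pass the expression filter only through the thymus. The others named by level were the receptor gene segments Tcrg-C1 (at least 247-fold), Trbv2 (at least 196-fold) and Trbv12-2 (at least 194-fold), and Chrna9, a subunit of nicotinic acetylcholine receptors, at 41.8, 44.2, 40.4 and 46.8 CPM in thymus (at least 221-fold). The phosphatase Ptprc, known as CD45 and found on all white blood cells, reached 1380, 1415, 1408 and 1483 CPM in thymus and 3.91, 5.41, 6.29 and 6.14 CPM in cerebrum. The single member of the list that was not called was Fyn, a kinase of T cells and neurons alike, at 121, 135, 126 and 129 CPM against 136, 133, 129 and 130.1 CPM, a log2 fold change of -0.05 with a 95% interval of -0.17 to 0.07.

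In the machinery of V(D)J recombination, lymphoid-specific and general factors differed in size. Rag1, which cuts the receptor gene segments, was at 4660, 4497, 4143 and 5084 CPM in the thymi and 2.83, 1.04, 1.21 and 1.69 CPM in the cerebra (log2 fold change 11.38 ± 0.27, edgeR adjusted p = 8.48e-11). Its partner Rag2, whose exons overlap those of B230118H07Rik on the other strand, was at 198, 184, 182 and 212 CPM against 0.272, 0.196, 0.0605 and 0.301 CPM, and Dntt, the polymerase that adds bases at the joints, at 1197, 1162, 1298 and 1360 CPM against 0.707, 0.456, 0.181 and 0.481 CPM. The exons of Rag1 also overlap those of B230118H07Rik, on the same strand. For Rag1, Rag2 and Dntt the organs were far apart. Of the 14 members 13 were called higher in thymus and 10 of them over 2-fold, against 45.1% and 30.4% of all tested genes. The general end-joining factors had smaller log2 fold changes, of 4.27 ± 0.11 for Xrcc6 (Ku70), 2.88 ± 0.09 for the ligase Lig4, 0.93 ± 0.13 for the kinase Prkdc, 0.78 ± 0.12 for Xrcc4 and 0.66 ± 0.08 for Xrcc5 (Ku80). Poll, a repair polymerase, was the member called higher in cerebrum, at 4.53, 5.35, 5.34 and 4.62 CPM in thymus and 7.99, 9.12, 9.19 and 8.49 CPM in cerebrum.

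All 21 transcription factors of the T lineage list were called over 2-fold higher in thymus, with a median log2 fold change of 5.37. Tcf7, the factor that Notch signals switch on as T cells commit, was at 3132, 3086, 3245 and 3087 CPM in thymus and 4.78, 4.82, 10.3 and 4.82 CPM in cerebrum, where WT 3 was again the highest. Ets1, which had the lowest p of the list, was at 1211, 1244, 1227 and 1242 CPM against 14.6, 16.3, 16.7 and 16.6 CPM, a log2 fold change of 6.26 ± 0.08. Gfi1, a repressor of the early lineage, showed 11.22 ± 0.21. The smallest differences of the list were those of Zbtb7b (1.10 ± 0.16), Id3 (1.90 ± 0.11), Tox (2.09 ± 0.22) and Bcl11b (2.29 ± 0.28), and the chromatin organiser Satb1, second to Tcf7 in thymus level, showed 3.22 ± 0.14. Levels in cerebrum were 274, 253, 183 and 194 CPM for Satb1 and 117, 70.6, 217 and 111 CPM for Bcl11b.

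Thymic stroma was readable in the same libraries. Foxn1, the master factor of thymic epithelium, stood at 24.4, 27.9, 25.1 and 28.6 CPM in the thymi, and a single cerebrum library held any count of it (ratio 1793, 95% counting interval 322 to 70823). Psmb11, the proteasome subunit found in cortical epithelium, was at 119.6, 118, 129 and 131 CPM against 1.79, 1.3, 1.33 and 1.5 CPM, and the serine protease Prss16 of the same cells at 652, 686, 747 and 752 CPM against 1.74, 3.06, 1.45 and 1.26 CPM. Krt14, a keratin of the medulla, had 31, 39.1, 29.2 and 30 CPM in thymus and no count in any cerebrum, at least 165-fold higher. Krt18, the member with the lowest p, showed a log2 fold change of 9.77 ± 0.12, and Aire, which lets medullary epithelium express antigens of other organs, one of 6.47 ± 0.19. Of the 16 members 15 were called higher in thymus (median 6.96), against 45.1% of all tested genes. The exception was Kitl, the ligand of the receptor Kit, at 25.4, 23.4, 24.7 and 26.4 CPM in thymus and 71.4, 90.4, 96.7 and 62.6 CPM in cerebrum. The exons of the chemokine gene Ccl25 overlap those of Elavl1 on the other strand, and whether counting used the strand is not given in the sources used here, so their values of 5.28 and 0.24 are less certain.

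All 17 antigen presentation genes were called over 2-fold higher in thymus, with a median log2 fold change of 5.70. Cd74, the chain that guards the groove of class II molecules, was at 1224, 1342, 1159 and 1254 CPM against 2.99, 1.76, 1.63 and 4.03 CPM, and the class II genes H2-Ab1 and H2-Aa showed log2 fold changes of 9.44 ± 0.16 and 9.27 ± 0.27, the latter 9.95 without the cerebrum of WT 1. B2m, the light chain of class I molecules, was present in both organs, at 969, 962, 877 and 870.2 CPM in thymus and 72.2, 101, 84.5 and 62 CPM in cerebrum. Tap1, a peptide transporter with the lowest p of the list, was at 160, 153, 154 and 152 CPM against 2.61, 2.67, 2.54 and 3.07 CPM. Its exons overlap those of the proteasome gene Psmb9 on the opposite strand.

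Both lists of genes of dividing cells were higher in thymus throughout. All 40 DNA replication genes were called over 2-fold higher there, with log2 fold changes from 1.06 to 8.07 and a median of 4.09. All 38 genes of mitosis and cytokinesis were called higher too, 37 of them over 2-fold, with a median of 6.20. Pcna, the clamp that holds polymerases on DNA, was at 363, 313, 443 and 370.4 CPM in thymus and 35.6, 41.4, 35 and 36.9 CPM in cerebrum, so it was detected at a steady level in the cerebrum as well. Mki67, a coat protein of mitotic chromosomes widely used to count dividing cells, was at 882, 688, 873 and 715 CPM against 3.26, 2.41, 1.57 and 3.19 CPM, a log2 fold change of 8.23 ± 0.21. Top2a, which untangles DNA before chromosomes part, was at 846, 671, 977 and 814 CPM against 2.83, 3.39, 1.69 and 3.73 CPM. In the cerebra Mki67 and Top2a were lowest in WT 3, and in the thymi their lowest value was in WT 2.

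Members of each list differed in how much remained in the cerebrum. The helicase genes that load onto origins, Mcm2 to Mcm7, had log2 fold changes between 3.92 (Mcm4) and 5.92 (Mcm3), while the origin subunit Orc6, at 33.7, 30.9, 42.8 and 34.4 CPM in thymus and 16.9, 16.9, 16.4 and 17.9 CPM in cerebrum, had 1.06 ± 0.10. Uhrf1, which copies DNA methylation to the new strand, had the largest value of the replication genes, with 346, 286, 408 and 336 CPM against 1.52, 1.37, 0.967 and 1.2 CPM. Among mitosis genes the smallest difference was that of Anln, an actin-binding protein of the cleavage furrow, at 64.1, 54.3, 66.5 and 65.9 CPM in thymus and 28.1, 43.2, 36.6 and 36.6 CPM in cerebrum (log2 fold change 0.80 ± 0.12). 9 of the 38 mitosis genes and 7 of the 40 replication genes had a mean under 1 CPM in the cerebrum.

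The regulators of cell cycle entry were less uniform. Of 32 genes 27 were called higher in thymus, 24 of them over 2-fold, 2 were called higher in cerebrum and 2 were at equal level (median 2.34). The shares of all tested genes were 45.1% higher in thymus, 30.4% over 2-fold so, 41.4% higher in cerebrum and 10.9% at equal level. Cyclin D3 (Ccnd3), the D-type cyclin of lymphocytes, was at 602, 564, 692 and 666 CPM against 20.8, 22, 15.8 and 19.3 CPM, and its kinase Cdk6 showed 5.01 ± 0.09. Cyclin D1 (Ccnd1) went the other way, at 36.5, 38.1, 26 and 34.7 CPM in thymus and 55.7, 79, 60.6 and 73.9 CPM in cerebrum. Cdkn1a, the inhibitor p21, was at 16.5, 19.6, 17.2 and 17.9 CPM against 31, 49.5, 27.9 and 31.4 CPM, where WT 2 was the highest cerebrum. The E2F factors separated by member: log2 fold changes were 7.66 ± 0.27 for E2f2 and 7.28 ± 0.19 for E2f8, 0.77 ± 0.13 for E2f1 and -0.03 ± 0.10 for E2f3, which was at equal level.

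Promoters of these lists are shown because the letters of cell cycle motifs were frequent in them. RefSeq promoters (GRCm38.p6) run from 250 bases before to 50 bases after each transcript start, and 32 of the 40 replication genes and 32 of the 38 mitosis genes had 1 or more. The E2F motif was searched as TTTGGCGC, TTTCGCGC or TTTCCCGC, the cell cycle homology region (CHR) as TTTGAA or TTCGAA, and the CCAAT box as CCAAT, each on both strands. An E2F motif was found in 14 of 37 promoters of replication genes (37.8%), in 3 of 34 of mitosis genes (8.82%) and in 1.84% of all promoters. A CHR motif was found in 28 promoters of mitosis genes (82.4%), in 6 of replication genes (16.2%) and in 19.2% of all promoters. CCAAT was in 79.4% of mitosis promoters, 56.8% of replication promoters and 37.4% of all. For presynaptic genes the shares were 3.33% (E2F), 13.3% (CHR) and 20% (CCAAT). These are matches of letters, with no measure of binding. In each list the 2 genes with the highest mean thymus level among those with a match are printed, from 5′ to 3′ along the gene's strand. Uhrf1 has 2 promoters, of which the first with a match is given. For Uhrf1 and Mcm6, capitals mark E2F matches on either strand, and in Mcm6 the first run holds 2 that overlap, TTTGGCGC and the reverse complement of TTTCGCGC. For Top2a and Mki67, capitals mark CHR and CCAAT matches on either strand.
Uhrf1 (chr17:56304063-56304362, plus strand): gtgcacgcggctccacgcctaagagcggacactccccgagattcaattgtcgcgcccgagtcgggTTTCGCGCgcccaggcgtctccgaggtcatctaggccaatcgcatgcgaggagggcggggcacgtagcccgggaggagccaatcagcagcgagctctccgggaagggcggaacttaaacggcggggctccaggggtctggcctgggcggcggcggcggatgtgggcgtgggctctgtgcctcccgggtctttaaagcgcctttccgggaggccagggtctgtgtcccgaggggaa
Mcm6 (chr1:128359656-128359955, minus strand): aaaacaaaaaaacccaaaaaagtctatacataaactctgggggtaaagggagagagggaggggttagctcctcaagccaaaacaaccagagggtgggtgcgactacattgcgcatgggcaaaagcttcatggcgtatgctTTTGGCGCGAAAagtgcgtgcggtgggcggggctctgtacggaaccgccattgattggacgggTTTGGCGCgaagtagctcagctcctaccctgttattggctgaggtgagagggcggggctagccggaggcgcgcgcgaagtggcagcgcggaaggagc
Top2a (chr11:99024140-99024439, minus strand): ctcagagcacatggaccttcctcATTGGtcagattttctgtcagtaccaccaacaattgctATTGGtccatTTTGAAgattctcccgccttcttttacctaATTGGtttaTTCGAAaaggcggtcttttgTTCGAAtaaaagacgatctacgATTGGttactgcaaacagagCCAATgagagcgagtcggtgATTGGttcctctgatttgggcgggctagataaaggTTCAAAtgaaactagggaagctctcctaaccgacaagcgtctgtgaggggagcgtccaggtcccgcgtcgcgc
Mki67 (chr7:135716330-135716629, minus strand): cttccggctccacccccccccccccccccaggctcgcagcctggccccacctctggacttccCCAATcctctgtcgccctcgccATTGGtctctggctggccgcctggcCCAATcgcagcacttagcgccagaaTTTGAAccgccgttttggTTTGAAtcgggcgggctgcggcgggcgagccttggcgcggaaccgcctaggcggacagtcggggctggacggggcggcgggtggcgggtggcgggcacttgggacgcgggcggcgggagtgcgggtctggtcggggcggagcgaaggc
Mcm6, whose promoter holds TTTGGCGC at 2 places, was at 259, 228, 322 and 266 CPM in thymus and 9.19, 5.86, 5.62 and 8.49 CPM in cerebrum, a log2 fold change of 5.20 ± 0.19. Among tested protein-coding genes with a promoter listed, an E2F motif was held by 5.18% of those over 2-fold higher in thymus, 2.22% of those over 2-fold higher in cerebrum and 3.40% of those at equal level. The ETS motif (ACAGGAAG or CAGGAAGT, which overlap, on either strand) was held by 9.30%, 4.36% and 6.53% of the same groups, and by 8 of 21 promoters of T cell receptor genes (38.1%) against 5.81% of all promoters. GC boxes (GGGCGG) were held by 59.3%, 66.5% and 68.6%.

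**Figure D2:**
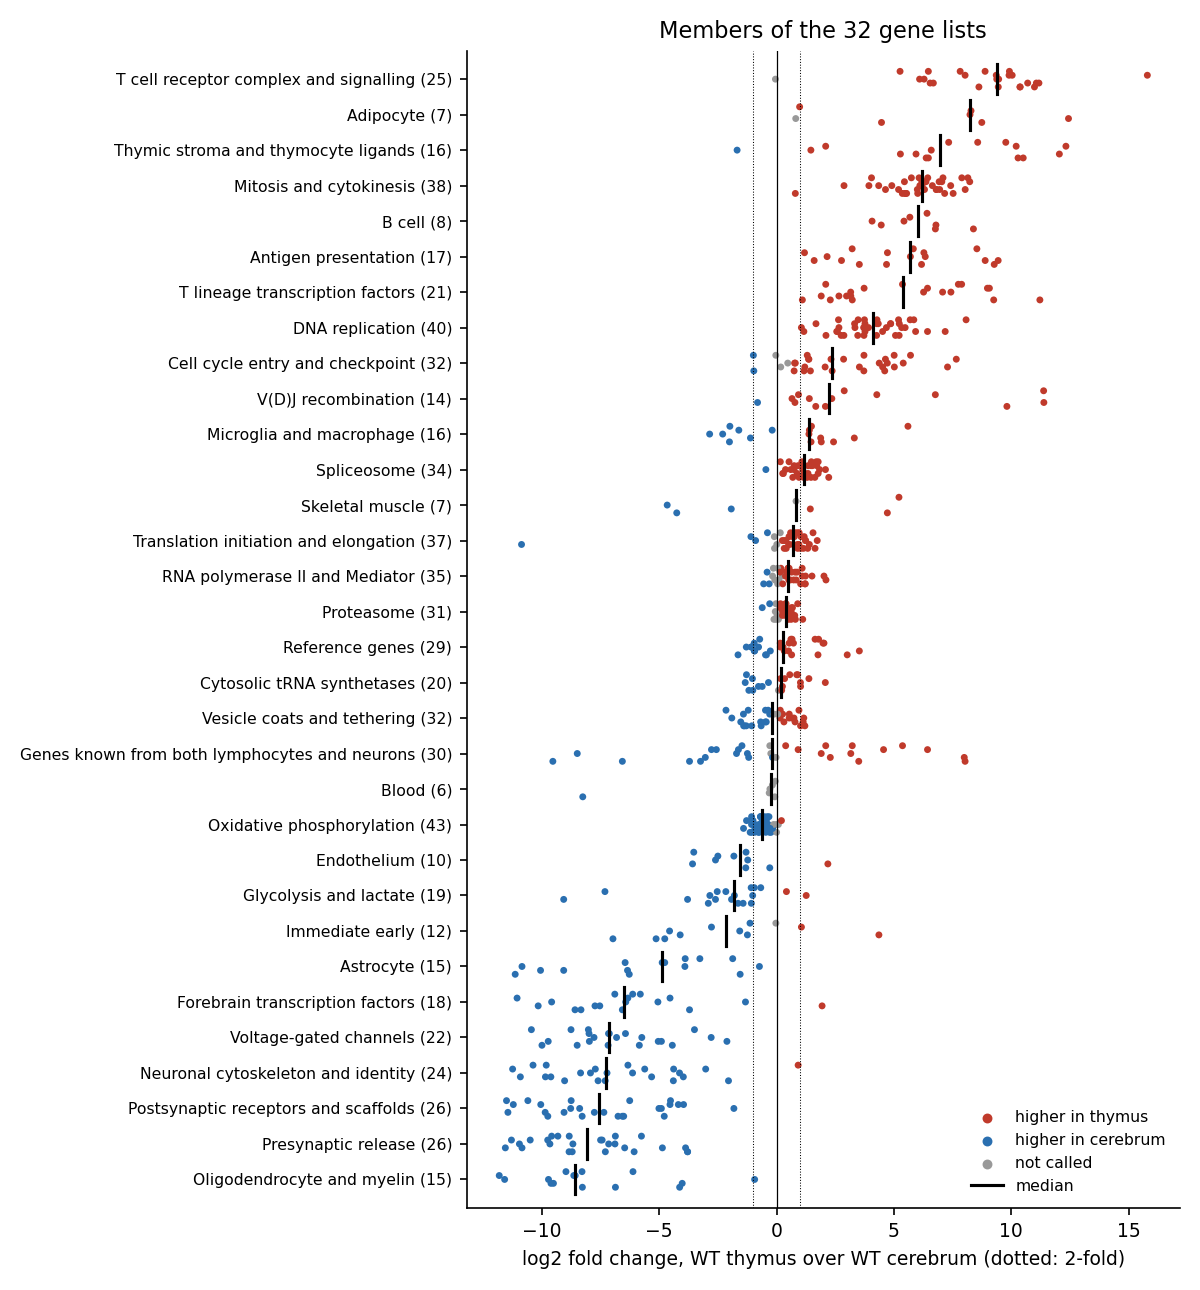
Log2 fold change of thymus over cerebrum for each tested member of the 32 gene lists, 1 point per gene, with the number tested in parentheses and the list's median as a bar. Medians run from 9.38 for the T cell receptor list down to -8.58 for oligodendrocyte genes, and the proteasome, polymerase, translation and oxidative phosphorylation lists lie close to 0.

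Synaptic genes formed the opposite pole. All 26 presynaptic and all 26 postsynaptic genes were called over 2-fold higher in cerebrum, against 30.0% of all tested genes, with median log2 fold changes of -8.09 and -7.56. Snap25, a SNARE protein that fuses synaptic vesicles, was at 2961, 4340, 3799 and 2592 CPM in the cerebra and at 1.16, 2.52, 0.741 and 1.07 CPM in the thymi, where WT 2 was highest (log2 fold change -11.30 ± 0.36, edgeR adjusted p = 6.53e-10). Syt1, the calcium sensor of release, was at 2329, 2011, 1908 and 1854 CPM in cerebrum and 11.6, 13.9, 10.2 and 9.23 CPM in thymus. Sv2a, a vesicle protein with the lowest p of the presynaptic list, was at 540, 482, 469 and 468 CPM against 3.37, 4.16, 3.44 and 2.87 CPM.

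Genes of both main transmitters were found. Slc17a7, which loads vesicles with glutamate, was at 1342, 1335, 1098 and 1334 CPM in cerebrum and 0.241, 0.99, 0.37 and 0.183 CPM in thymus, the largest difference of the presynaptic list at -11.56 ± 0.31, or -12.27 without the thymus of WT 2. Gad1, which makes GABA, was at 396, 439, 571 and 338 CPM against 0.385, 0.693, 0.529 and 0.428 CPM. Both stayed near or under 1 CPM in every thymus. 9 members of each synaptic list had a mean under 1 CPM in thymus, and none was at 0 in all 4 thymi.

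On the receiving side, Camk2a, the kinase abundant at excitatory synapses, was at 3491, 4704, 3544 and 4130 CPM in cerebrum but kept 41.7, 34.1, 35.9 and 35.1 CPM in thymus. Nrgn, a calmodulin-binding protein of dendrites, fell into pairs among the cerebra, with 829.8, 1697, 1639 and 935 CPM, while the thymi held 5.01, 6.09, 6.4 and 5.9 CPM. Gria3, a glutamate receptor subunit with the lowest p, showed -4.79 ± 0.07. Gphn, the scaffold of inhibitory synapses, had the smallest difference of the list, at 24.2, 19.5, 23.9 and 24.9 CPM in thymus and 81.5, 84.8, 89.9 and 70.7 CPM in cerebrum.

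All 22 voltage-gated channel genes were called over 2-fold higher in cerebrum (median -7.15). Scn8a, a sodium channel of axons, was at 510.3, 491, 507 and 433 CPM against 0.482, 0.644, 0.688 and 0.489 CPM (log2 fold change -9.73 ± 0.13). Within each organ the values differed by far less than between them. The smallest differences of the list were those of Kcnab2, an accessory subunit at 108, 116, 117 and 114 CPM in thymus and 480.5, 541, 490.5 and 458 CPM in cerebrum, and of the calcium channel Cacna1e (-2.79 ± 0.23). The potassium channel Kcns2 had no count in any thymus and 33.7, 46.9, 58.2 and 32.3 CPM in cerebrum, at least 269.6-fold higher.

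Of 24 genes of the neuronal cytoskeleton and identity, 23 were called over 2-fold higher in cerebrum (median -7.27). Kif5a, a motor that carries cargo along axons, was at 3814, 5720, 4817 and 4494 CPM against 2.12, 4.46, 1.38 and 1.9 CPM, and Rbfox3, the nuclear antigen NeuN, at 250.1, 334, 340.4 and 225 CPM against 0.289, 0.545, 0.423 and 0.245 CPM. The exception was Thy1, a surface protein named for thymocytes and also abundant on neurons, at 1245, 1235, 1279 and 1358 CPM in thymus and 673, 695, 704 and 637 CPM in cerebrum (log2 fold change 0.92 ± 0.07, edgeR adjusted p = 3.93e-07).

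Myelin genes had the lowest median of all lists, -8.58, and all 15 were called higher in cerebrum, 14 of them over 2-fold. Mog, a protein of the outer myelin surface, was at 53, 75.1, 69.5 and 49.5 CPM in cerebrum with a single thymus library holding any count (ratio 5676, 95% counting interval 1019 to 224179). Mbp, the basic protein of myelin, differed less: besides 2179, 3254, 2871 and 2023 CPM in cerebrum it held 162, 159, 151 and 164 CPM in thymus, a log2 fold change of -4.02 ± 0.16, and Cnp held 166, 157, 171 and 182 CPM in thymus against 306, 379, 342 and 267 CPM. Across the cerebra Mbp and Mog were each higher in WT 2 and WT 3 than in WT 1 and WT 4.

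Astrocyte genes spread more widely, although all 15 were called higher in cerebrum (median -4.88). Slc1a2, the glutamate transporter, was at 4940, 5733, 5113 and 5103 CPM against 1.98, 5.05, 2.38 and 2.08 CPM, and Aldoc, an aldolase with the lowest p, at 759, 913, 782 and 853 CPM against 1.59, 1.78, 1.38 and 1.41 CPM. Gfap, the astrocyte filament, varied within the organ, with 182, 97.9, 66.2 and 168 CPM in cerebrum and 1.4, 1.88, 1.75 and 1.34 CPM in thymus. Glul, which turns glutamate into glutamine, kept 199, 201, 203 and 196 CPM in thymus against 1740, 2229, 1927 and 1822 CPM in cerebrum. Apoe, the lipid carrier, had -0.73 ± 0.09, the smallest difference of the list.

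Of 18 forebrain transcription factors 17 were called higher in cerebrum (median -6.50). Tbr1, of deep cortical neurons, was at 139, 185, 160.3 and 187 CPM in cerebrum and 0.144, 0.248, 0.106 and 0.0917 CPM in thymus. Neurod6 was at 115, 76.2, 54.1 and 84.9 CPM in cerebrum and had counts in 2 thymi (ratio 2582, 95% counting interval 884 to 12520). Sox2, the stem cell factor with the lowest p, was at 31.1, 31.2, 33 and 31.2 CPM against 0.0963, 0.099, 0.0529 and 0.0612 CPM. Cux1, which marks upper cortical layers but is active in many tissues, was called higher in thymus, at 476, 435, 440.1 and 474 CPM against 94.3, 137, 158 and 87.2 CPM. Its relative Cux2 was -6.43 on the same scale of differences.

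**Figure D3:**
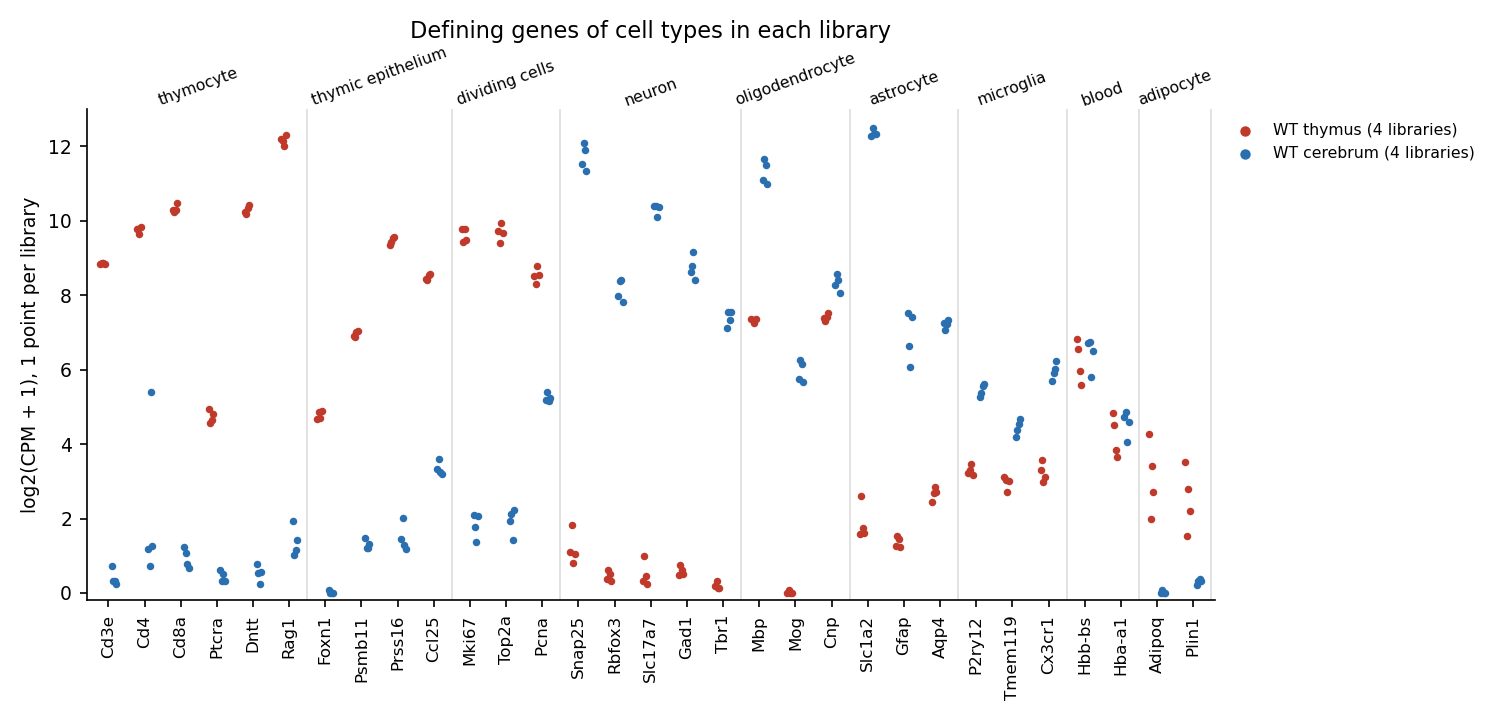
Level of defining genes as log2(CPM + 1), 1 point per library, in the 4 WT thymi and 4 WT cerebra. The organs do not overlap for thymocyte, epithelial, dividing-cell, neuronal, glial and adipocyte genes, the globins overlap, and Cd4 in the WT 3 cerebrum lies above the other cerebra at 41.4 CPM.

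Gene lists of other cell types varied in how far the organs differed. Of 16 genes of microglia and macrophages 9 were called higher in thymus and 7 in cerebrum, against 45.1% and 41.4% of all tested genes. The 3 defining genes of microglia were higher in cerebrum: P2ry12, a nucleotide receptor, was at 37.7, 40.7, 46.2 and 47.9 CPM against 8.33, 8.81, 9.94 and 8.04 CPM, Cx3cr1, the receptor for fractalkine, at 50.5, 59.4, 63.4 and 73.5 CPM against 8.86, 10.8, 6.93 and 7.61 CPM, and Tmem119 at 17.3, 19.6, 22.2 and 24.6 CPM against 7.61, 7.23, 5.5 and 7.03 CPM. So were the receptor genes Mertk (-2.01 ± 0.09), Trem2 (-1.99 ± 0.17) and Csf1r (-1.11 ± 0.10), which macrophages of other organs also carry. Members higher in thymus were led by the lysozyme Lyz2 at 288, 279, 254 and 262 CPM against 6.74, 3.45, 6.77 and 5.24 CPM and the mannose receptor Mrc1 (3.31 ± 0.20), and among them the complement genes C1qa, C1qb and C1qc had log2 fold changes of 1.38, 1.40 and 1.49.

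All 8 B cell genes were called higher in thymus (median 6.04), against 45.1% of all tested genes, but at low levels, such as 18, 16.4, 16.6 and 22.2 CPM for the receptor chain Cd79b. Each had a mean under 1 CPM in cerebrum, and together they held 1.90 to 2.17 CPM per cerebrum library. They thus passed the expression filter mainly through the thymus, which fixed their direction. Haemoglobin was not called in WT mice: Hbb-bs was at 112, 93.1, 61.2 and 46.8 CPM in thymus and 103, 106, 54.8 and 90 CPM in cerebrum (95% interval of the log2 fold change -0.82 to 0.46), while in Tol mice all 4 globin genes of the list were called higher in thymus, Hbb-bs by 0.395 ± 0.149 on the log2 scale (edgeR adjusted p = 0.026). Fat cell genes were uneven between thymi, with 18.4, 2.97, 9.68 and 5.5 CPM of Adipoq, the hormone adiponectin, against counts in a single cerebrum (ratio 582, 95% counting interval 104 to 22980). In that list 6 of 7 tested genes were called higher in thymus, against 45.1% of all tested genes. Skeletal muscle genes were low, and 3 of 7 tested were called in each direction, near the 45.1% (thymus) and 41.4% (cerebrum) of all tested genes. Of 10 endothelial genes 9 were called higher in cerebrum, against 41.4% of all tested genes. They included Flt1 (-3.53 ± 0.08) and the glucose carrier Slc2a1 of the blood-brain barrier (-2.60 ± 0.07). Pecam1, which some white blood cells also carry, was higher in thymus (2.19 ± 0.07). The part of these cell types in the differences above was not tested.

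Immediate early genes, which neurons and lymphocytes switch on within minutes of a signal, were called higher in cerebrum for 9 of 12 (median -2.17), against 41.4% of all tested genes. Arc, a synaptic protein, was at 416, 1119, 327 and 403 CPM in cerebrum, with WT 2 far above the rest, and at 15.2, 15.7, 15.1 and 18.2 CPM in thymus. Egr1 and Egr3, transcription factors, were also highest in WT 2, with 621, 1055, 518 and 561 CPM and 321, 539.9, 342 and 305 CPM in cerebrum. Egr2, used in thymocyte selection, was not called, at 27.8, 27.3, 24 and 32.2 CPM in thymus and 28.9, 34.1, 10.2 and 40.8 CPM in cerebrum (95% interval of the log2 fold change -0.77 to 0.71). Btg2, an antiproliferative gene, was higher in thymus, at 434, 417, 350.3 and 537 CPM against 24.6, 23.2, 9.91 and 26.8 CPM, as was Ier2 (1.06 ± 0.28).

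Related genes often differed in opposite directions. For 30 pairs of related genes, the log2 ratio of the first member over the second was higher in every thymus library than in every cerebrum library in 29. In 18 pairs the members were called in opposite directions. Of all tested genes 45.1% were called higher in thymus and 41.4% in cerebrum. How often the ratio of any other pair of genes separates the libraries in this way was not computed, so the 29 has no share to be read against. The pairs were chosen with earlier results of these data known, so these counts are a description and no test. Shares below are per length, each member's CPM divided by the length of its exons. The splicing repressor Ptbp1 made up 96.1% of its pair with the neuronal Ptbp2 in thymus and 35.0% in cerebrum, with Ptbp1 at 466, 449, 489 and 478 CPM against 30.5, 28.3, 22.7 and 33.8 CPM and Ptbp2 at 35.1, 34.2, 39.4 and 38.9 CPM against 111, 95.2, 101 and 106 CPM. The widely used SNARE gene Snap23 made up 98.4% of the pair with Snap25 in thymus and 0.614% in cerebrum. The elongation factor gene Eef1a1 fell from 99.99% of its pair with Eef1a2 in thymus to 63.7% in cerebrum, where Eef1a2 reached 918, 1057, 945 and 865 CPM against 0.241, 1.19, 0.317 and 0.336 CPM in thymus.

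The actin regulators of blood cells and their relatives gave the same picture. Dock2, an activator of Rac in lymphocytes, was at 313, 313, 289.8 and 303 CPM in thymus and 4.62, 4.5, 5.02 and 6.26 CPM in cerebrum, and Dock3, its relative in neurons, at 0.867, 2.08, 1 and 0.948 CPM and 400.2, 376, 445 and 323 CPM. Nckap1l, the blood cell subunit of the WAVE complex, showed 4.11 ± 0.12 and Nckap1 -3.88 ± 0.08, Was 5.76 ± 0.17 and Wasl -2.03 ± 0.08, and the small GTPase genes Rac2 7.39 ± 0.09 and Rac3 -1.35 ± 0.23. Of signalling pairs, the phosphatases Ptpn6 and Ptpn11 showed 6.09 and -0.82, the G protein subunits Gnai2 and Gnao1 1.67 and -9.65, and the kinase subunits Pik3cd and Pik3cb 2.55 and -1.46.

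In several pairs of a widely used and a neural member the neural one differed more, while Ptbp2 (-1.49 ± 0.07) differed less than Ptbp1 (4.03 ± 0.12). The RNA-binding gene Elavl1 showed 0.24 ± 0.13 and Elavl3 -8.41 ± 0.11, and Celf1 0.16 ± 0.08 and Celf4 -8.29 ± 0.23. The kinesin Kif5b was at 284, 278, 272 and 312 CPM in thymus and 370.2, 524, 478 and 400.5 CPM in cerebrum, a call lost with total counts, while Kif5a showed -10.92 ± 0.36. In the proteasome, the catalytic subunits of most cells, Psmb5, Psmb6 and Psmb7, showed 0.02 ± 0.06, 0.49 ± 0.06 and 0.15 ± 0.06, and their immune counterparts Psmb8, Psmb9 and Psmb10 6.33 ± 0.10, 6.28 ± 0.09 and 1.6 ± 0.10. Psmb8 thereby made up 46.9% per length of its pair with Psmb5 in thymus and 1.10% in cerebrum. The glucose carriers Slc2a3 and Slc2a1 were the pair whose ratio overlapped between the organs.

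**Figure D4:**
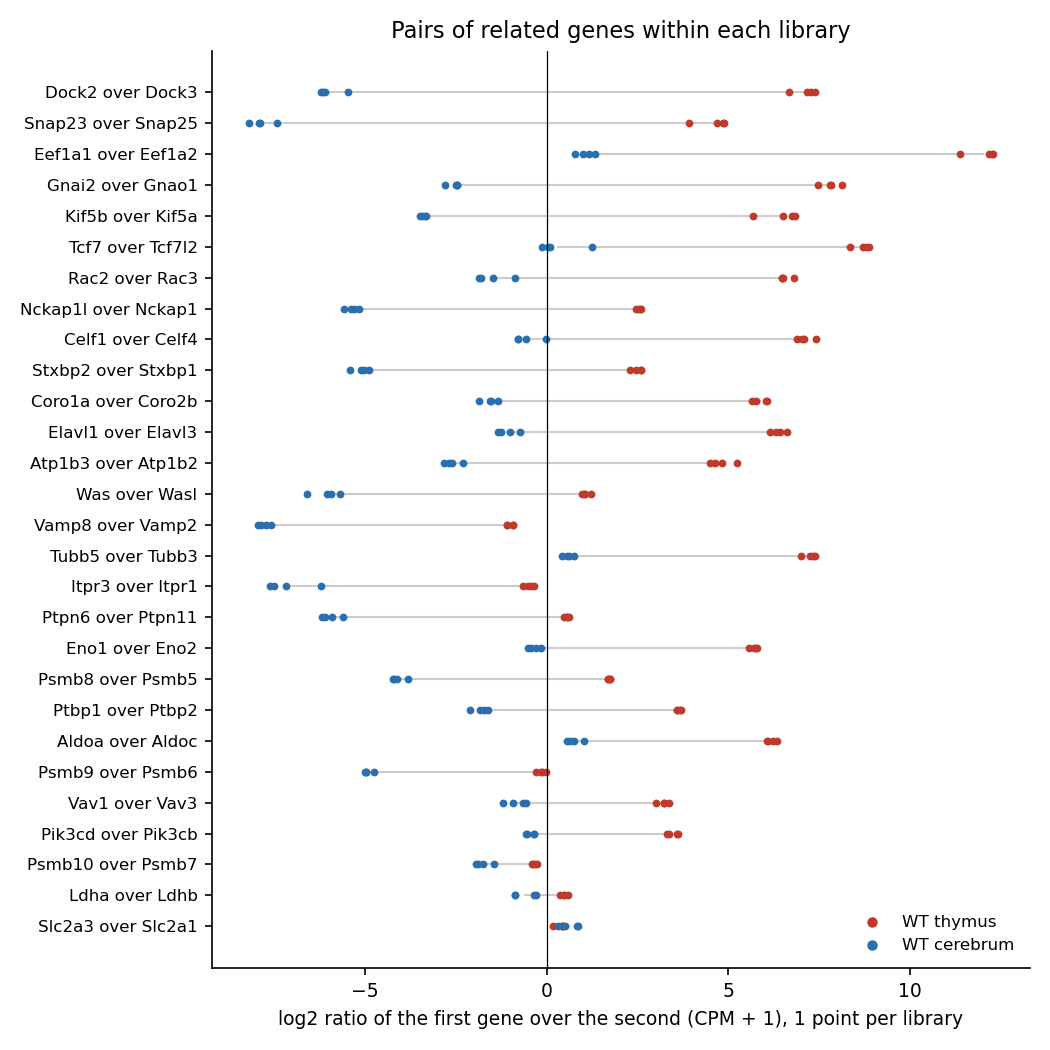
Log2 ratio of the first over the second member of 28 of the 30 pairs of related genes (CPM + 1, horizontal axis), 1 point per library. Thymus points lie to the right of the cerebrum points in 27 of those drawn, and those of Slc2a3 over Slc2a1 overlap.

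Genes at equal level were looked for by interval rather than by a missed call. Of the 10 with the highest level, Hspa8, a chaperone of the heat shock family, was at 2349, 1985, 2072 and 2085 CPM in thymus and 2263, 2359, 2062 and 2301 CPM in cerebrum (95% interval of the log2 fold change -0.27 to 0.11). Hsp90ab1, another chaperone, was at 1720, 1503, 1712 and 1598 CPM against 1710, 1472, 1490 and 1623 CPM (-0.13 to 0.24). Ubb, a ubiquitin gene, was at 602, 603, 642 and 644 CPM against 666, 680.1, 674 and 661 CPM (-0.24 to 0.02). The others were the mitochondrial leucyl-tRNA synthetase Lars2, the splicing protein Srrm2, the membrane protein Itm2b, the kinase Dgkz, the ubiquitin ligase Huwe1, Prrc2a and the ATP synthase subunit Atp5a1. Of the 5 with the smallest error, Hectd3, a ubiquitin ligase, was at 58.1, 59.9, 60 and 60.8 CPM against 57.9, 57.3, 58.2 and 54.7 CPM, and its libraries overlapped. The other 4, Naa30, an acetyltransferase subunit, Wdr48, Rnf181 and the clathrin light chain Clta, were called as well, with log2 fold changes of 0.20, 0.21, 0.39 and -0.29.

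In WT mice the proteasome held more genes at equal level than any other list with TMM factors, 13 of 31 (41.9%) against 10.9% of all tested genes. Equal levels per list were not counted in Tol mice. Psmd2, a subunit of its regulatory particle, was at 192, 189, 205 and 211 CPM in thymus and 199.9, 201, 217 and 194 CPM in cerebrum, and the log2 fold changes of the 31 genes lay between -0.61 (Psmc5) and 1.11 (Psma6). This count rested on the scaling: with upper quartile factors 9 of the 31 were at equal level and oxidative phosphorylation led with 15 of 43, and with total counts 4 of the 31 were at equal level and 29 were called higher in thymus, against 23 with TMM factors. RNA polymerase II and Mediator had 10 of 35 at equal level and 25 called higher in thymus, led by Med12 (2.10 ± 0.10) and Polr2a, the large subunit, at 408, 419, 392 and 404 CPM against 129, 82.3, 73.7 and 115 CPM. Vesicle coats, with 14 of 32 higher in thymus and 16 in cerebrum, were near the 45.1% and 41.4% of all tested genes: the clathrin adaptor genes Ap2a1 and Ap2m1 showed -1.91 ± 0.06 and -1.37 ± 0.06, and Sec24c and Copb1, of the coats between the endoplasmic reticulum and the Golgi, 1.20 ± 0.06 and 1.16 ± 0.05.

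Splicing and translation genes leaned to the thymus. Of 34 spliceosome genes 33 were called higher there, 21 of them over 2-fold (median 1.16), such as Srsf3 at 368, 366, 403 and 379.5 CPM against 121, 119, 124 and 125 CPM, and Prpf19 was called the other way (-0.46 ± 0.07), a call lost with total counts. Of 37 translation factors 29 were called higher in thymus and 4 in cerebrum, among them Eif4a2 (-1.09 ± 0.06), an RNA helicase whose relative Eif4a1 showed 1.24 ± 0.08. Protein-coding genes with symbols that begin with Rps and Rpl were called higher in thymus for 36 of 44 and 46 of 47. Their medians were 1.76 and 1.53, although processed pseudogenes can share their reads. Both prefixes were read by symbol alone, so they can take in genes that are not ribosomal subunits. Log2 fold changes reached down to -3.26 for Rps and -0.33 for Rpl. Genes of the mitochondrial ribosome were closer to each other, and 16 of 29 Mrps genes and 18 of 49 Mrpl genes were at equal level. Cytosolic tRNA synthetases were also near the shares of all tested genes (45.1% and 41.4%), 11 of 20 higher in thymus with Vars at 2.08 ± 0.08, and 8 higher in cerebrum with Nars at -1.34 ± 0.08.

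Energy metabolism leaned to the cerebrum. Of 43 nuclear genes of oxidative phosphorylation 38 were called higher in cerebrum and 11 were at equal level, with a median of -0.61. The shares of all tested genes were 41.4% and 10.9%. Cox5b, a subunit of cytochrome oxidase with the lowest p, was at 75.5, 69.6, 75.4 and 73 CPM in thymus and 148, 152, 149.6 and 139 CPM in cerebrum, and Sdhd was the member called higher in thymus (0.21 ± 0.06). With total counts 25 of the 43 were called higher in cerebrum, 7 higher in thymus, and 28 were at equal level. In Tol mice many members lay further toward thymus, so the lean was weaker there. Ndufa2 was called higher in thymus (0.404 ± 0.126, edgeR adjusted p = 0.00979, against -0.276 in WT mice). Cox5a was not called (-0.05 in Tol and -0.45 in WT mice), while Cox5b was still called higher in cerebrum (-0.70 ± 0.08 in Tol mice). All 13 genes of the mitochondrial genome were called over 2-fold higher in cerebrum, with a median of -2.53, and held 2.23% to 2.96% of the counts in thymus and 7.60% to 8.62% in cerebrum. mt-Co1, a cytochrome oxidase subunit, was at 7290 ± 493.9 CPM in thymus and 24580 ± 2119 CPM in cerebrum (SD, n = 4 each).

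Of 19 glycolysis genes 17 were called higher in cerebrum (median -1.80) under each of the 4 scalings. With TMM factors 41.4% of all tested genes were so called. Aldoa was at 177, 187, 192 and 182 CPM against 1548, 1337, 1327 and 1343 CPM, and the muscle-type phosphofructokinase Pfkm showed -3.79 ± 0.08. Ldha, which makes lactate, was higher in thymus, at 347, 338, 382 and 376 CPM against 278, 257, 262 and 283 CPM, and its partner Ldhb higher in cerebrum, at 248, 243, 255 and 291 CPM against 357, 468, 484 and 346 CPM. Hk2, a hexokinase of growing cells, was also higher in thymus (1.26 ± 0.22).

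Of 29 genes in common use as references for normalization, 17 were called higher in thymus, 12 in cerebrum and 5 were at equal level, against 45.1%, 41.4% and 10.9% of all tested genes. Actb was at 3286, 3434, 3044 and 3367 CPM in thymus and 958, 975, 1031 and 903 CPM in cerebrum, and Gapdh at 649, 587, 699 and 604 CPM against 1283, 1297, 1193 and 1131 CPM, so the 2 lay on opposite sides by 1.76 ± 0.08 and -0.95 ± 0.08. The widest were B2m (3.53 ± 0.15) and Rplp0 (3.01 ± 0.08) on the thymus side and Emc7 (-1.64 ± 0.06) on that of the cerebrum. Those at equal level were Vcp, C1d, Snrpd3, Chmp2a and Ipo8.

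A list of 30 genes known from both lymphocytes and neurons held 13 called higher in thymus, 14 higher in cerebrum and 2 at equal level, near the 45.1%, 41.4% and 10.9% of all tested genes. Its median of -0.21 rested on few genes near 0, and was 0.00427 without the cerebrum of WT 3. Stmn1, a microtubule regulator of growing cells, was at 396, 351, 459 and 414 CPM against 383, 444, 399 and 422 CPM (-0.22 to 0.18 as the 95% interval). The calcium-dependent kinase Camk4 was at 384, 356, 361 and 391 CPM against 359, 429.6, 671 and 311 CPM and was not called, but its interval of -0.71 to 0.21 was too wide for equal level. Cxcr4, a chemokine receptor, showed 8.0 ± 0.15, and Mef2c, a factor active in B cells and neurons, -6.57 ± 0.13.

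Long genes leaned to the cerebrum. Of 15712 tested protein-coding genes 31.4% were over 2-fold higher in cerebrum. For genes that span under 50 kb of the genome from first to last base, the share in each size class was between 25.8% and 27.0%, and it rose to 33.6% at 50 to 100 kb, 44.9% at 100 to 200 kb, 63.4% at 200 to 500 kb and 81.8% of the 214 genes over 500 kb. The share over 2-fold higher in thymus fell from 34.4% under 5 kb to 3.27% over 500 kb, and equal levels from 12.8% at 50 to 100 kb to 1.40%. Among genes of 2 to 4 kb of exon sequence the cerebrum share was 26.8% under 20 kb of span and 50.7% over 100 kb, and among genes with at least 1 CPM in both organs it was 21.8% under 20 kb and 58.2% over 200 kb. The 7 genes over 500 kb that were over 2-fold higher in thymus were Dock2, Slc9a9, Lpp, Inpp4b, Arhgap15, Rad51b and Gm20388, named after their values were seen. Genes of 1 span class share functions and neighbours, so these shares are a description over genes and were given no test.

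**Figure D5:**
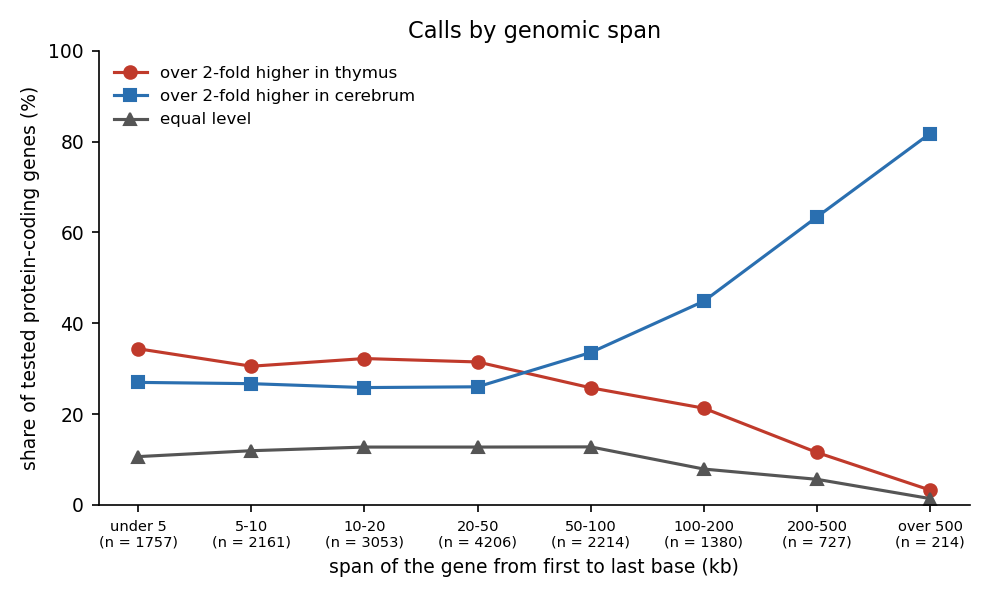
Share of the tested protein-coding genes over 2-fold higher in thymus, over 2-fold higher in cerebrum, or at equal level (vertical axis, %), by genomic span in kb (horizontal axis, with the number of genes). The cerebrum share rises from 27.0% under 5 kb to 81.8% over 500 kb.

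Gene classes set by symbol or biotype followed the organs as well. All 90 tested V segments of T cell receptor genes and all 55 of immunoglobulin genes were over 2-fold higher in thymus, against 30.4% of all tested genes. A segment with next to no counts in cerebrum could pass the expression filter only through the thymus. The direction of such segments was thus set by the filter, and segments that failed it are not counted. All 16 interferon-inducible Ifi genes were higher there (median 6.05), as were all 20 nucleoporin (Nup) genes (1.53). All 21 protocadherin Pcdhb genes were over 2-fold higher in cerebrum (-5.44), and 15 of 16 synaptotagmin (Syt) genes (-7.25). Symbols of near-identical family members may share reads, which limits the values of single members. Among the 36 tested genes at 0 in all 4 thymi, which could pass the filter only through the cerebrum, the highest cerebrum levels were those of Tceal6 at 65.7, 62.4, 75.5 and 56.6 CPM (at least 410-fold higher) and, after Kcns2, of Gm19410, Cmtm5 and Pnma3.

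The same contrast was measured again in Tol mice, in 4 thymi and 4 cerebra that took no part in the values above. Of the 5117 genes over 2-fold higher in WT thymus, 5024 were tested there and 4957 were called in the same direction, against 45.5% of all genes tested in Tol mice. Of the 5055 over 2-fold higher in WT cerebrum, 5023 were tested and 4983 were called the same way, against 41.1%. No gene of either group was called in the opposite direction. Of the 1843 genes at equal level in WT mice 1210 were so in Tol mice, and 3 differed over 2-fold. Log2 fold changes in Tol and WT mice were 11.29 ± 0.26 and 11.38 for Rag1, 8.32 ± 0.29 and 8.23 for Mki67, -11.45 ± 0.38 and -11.30 for Snap25, and 0.08 ± 0.07 and -0.03 for Psmd2. Other proteasome genes lay further toward thymus in Tol mice, among them Psmb5 (0.32 ± 0.11 and 0.02), Psmb7 (0.48 ± 0.09 and 0.15) and Psma6 (1.57 ± 0.10 and 1.11). Psmd11 did not (0.25 ± 0.06 and 0.38). Cd28, without a count in the WT cerebra, was at 0.585, 0, 0 and 0.853 CPM in the Tol cerebra against 325, 313, 348 and 287 CPM in the Tol thymi (log2 fold change 9.93 ± 0.365). For Cd4, 1 of the 4 Tol cerebra also stood apart, with 2.93, 1.89, 2.02 and 19.0 CPM in Tol 1 to Tol 4, and the Tol log2 fold change was 7.20 ± 0.63. A test of whether the organ difference itself differed between Tol and WT mice called 19 of 17774 genes.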

How the data were processed

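RNA from frozen organs was sequenced by the authors after poly(A) selection as stranded single-end libraries, and Salmon (version 0.14.1, GRCm38 transcripts with the Tol transcript added) gave the deposited estimated counts per gene, in whole numbers. The submitters' processing notes also name edgeR 3.9. Whether strand was used in counting is not given in the sources used here.

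Thymus and cerebrum counts were joined by gene identifier, without the Tol transcript. Genes without a symbol held at most 0.0502% of a library's counts. Counts were scaled by TMM factors (1.12 to 1.18 in thymus, 0.845 to 0.890 in cerebrum), filtered with filterByExpr and tested with edgeR 4.0.16 in R 4.3.3 (glmQLFit and glmQLFTest, all 8 WT libraries, no block, Benjamini-Hochberg adjustment, threshold 0.05). DESeq2 1.42.0 and limma 3.58.1 served as alternatives, with other scalings, filters, margins, all 22 libraries, a replicate block and each library left out. The steps were tested on simulated data. The biological coefficient of variation was 14.9%, and the scatter between replicate libraries was 4.99 to 43.4 times that of counting alone, so none was a repeat of another. Whether replicates share a litter or cage is not stated, and p-values measure the spread between these libraries.

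Genes, lists and pairs were chosen with earlier results of these data known. Named by rule are the genes with the highest levels among those with 0 counts in the other organ, in each list the member with the lowest p, the 2 with the highest level and those called against the majority, all pairs, all defining markers, and of the genes at equal level the 10 highest and the 5 with the smallest error. The rule also covers the 12 highest genes over 16-fold in each direction. It asked for 1 promoter of each of the replication and mitosis lists, and a second of each was added. Some genes that the rule names are not reported here. Other list members in the text were chosen after their values were seen. Symbols, spans and overlaps came from the GRCm38 annotation, and promoters from RefSeq.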

Additional observations from a re-analysis of the deposited data

Results flagged for a closer look

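In 39 of 482 sets of 4 values (8.09%), 1 library lay apart from the other 3 by Dixon's test, where chance gives about 5 of 100. Foxn1 and Adipoq in cerebrum and Mog in thymus had counts in 1 library only, under the limit of 3 counts. Such sets are flagged whatever the value, so the 5 of 100 does not hold for them. The WT 4 thymus had 29145284 counts against 16319117 to 17940261 in the others.

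In cerebrum, WT 3 stood apart for Cd4 at 41.4 CPM (others 0.651 to 1.38) and Tcf7 at 10.3 CPM (others 4.78 to 4.82), and also for Slc17a7 at 1098 CPM and Sox2 at 33.0 CPM. Its mean of log2(CPM + 1) was 2.51 over the antigen presentation list, 8.66 over the postsynaptic list, 5.51 over forebrain factors and 4.42 over blood genes. WT 2 stood apart for Arc at 1119 CPM (others 327 to 416), Egr3 at 539.9 CPM (others 305 to 342) and Cdkn1a at 49.5 CPM (others 27.9 to 31.4). It did so as well for Psmb8 at 2.87 CPM, Psmb9 at 1.11 CPM, Wdr48 at 86.1 CPM and Adipoq at 0.0651 CPM, the only cerebrum with a count of that gene. WT 1 stood apart for Trp53inp1 at 24.9 CPM, Aldoa at 1548 CPM, Cd3d and Cd3e at 0.652 CPM each, E2f8 at 0.978 CPM, H2-Ab1 at 1.09 CPM, Foxn1 at 0.0543 CPM and the vesicle coat list at 6.87 on the mean log2 scale. WT 4 did so for Aire at 0.12 CPM.

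In thymus, WT 2 stood apart for the neural genes Slc1a2 at 5.05 CPM (others 1.98 to 2.38), Camk2n1 at 5.6 CPM, Dock3 at 2.08 CPM (others 0.867 to 1.0), Eef1a2 at 1.19 CPM (others 0.241 to 0.336) and Mog at 0.0495 CPM, and for Aire at 27.9 CPM. WT 3 stood apart for Chmp2a at 54.5 CPM, Rac3 at 3.12 CPM and Wasl at 39.8 CPM. WT 4 did so for Arc at 18.2 CPM, Satb1 at 2239 CPM and Was at 99.5 CPM, and WT 1 for Tap1 at 160.0 CPM and Trem2 at 1.64 CPM (others 2.54 to 2.69).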

How the results depend on the processing

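The 5 counts of genes stayed within 1.5 times their value under the other scalings, filters, tests and sets of libraries tried. With a margin of 1 in place of 0.5 on the log2 scale, 4941 genes were at equal level. With 1 library left out, 7485 to 7812 genes were called higher in thymus and 6905 to 6964 in cerebrum, 5140 to 5336 and 5051 to 5168 of them over 2-fold, and 1629 to 1769 were at equal level. Deviations of same-numbered libraries of the 2 organs correlated at 0.0586, -0.015, 0.0496 and 0.0462, within the -0.0715 to 0.084 of libraries with different numbers. Such weak values between unlike organs cannot tell whether the same number marks the same mouse. With a replicate block 7530 genes were called higher in thymus, 6913 in cerebrum, 5141 and 5040 over 2-fold, and 1739 were at equal level. Small differences turned with the scaling. With total counts the log2 fold change became 0.122 for Psmd7, 0.0977 for Med24, 0.00999 for Polr2l, 0.027 for Eif4e, 0.044 for Atp5b, 0.179 for Atp5a1, 0.243 for Itm2b and 0.122 for Clta, and the medians of the blood, vesicle coat and both-tissue lists became 0.185, 0.216 and 0.21. With upper quartile factors it became 0.0176 for Itm2b. The median of the list known from lymphocytes and neurons lay between -0.288 (without WT cerebrum 4) and 0.00427 (without WT cerebrum 3). Of 4757 values for named genes 4664 kept direction and call, 53 lost and 31 gained a call. Genes under 3 counts in an organ have bounds or wide counting intervals.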

Other observations

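Families set by symbol, some members of which stand in the lists above, also differed. Of 19 tested chemokine genes with symbols in Ccl, 16 were over 2-fold higher in thymus and 3 in cerebrum (median log2 fold change 3.92), and of 26 keratin (Krt) genes 17 and 4 (5.28). DEAD-box helicases (Ddx) were called higher in thymus for 28 of 35 (1.15). Sox genes, developmental transcription factors, were called higher in cerebrum for 13 of 15 (-3.52). Of 527 tested protein-coding genes of the X chromosome 42.5% were over 2-fold higher in cerebrum, against 31.4% of all protein-coding genes tested. Chromosome 18 had nearly the same share, 42.2% of 429 genes, so it was not particular to the X chromosome. These are descriptions over genes, with no test.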
